A study of Mus musculus with 10 samples.

Results

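Tcf21 encodes a class II basic helix-loop-helix (bHLH) transcription factor, and its chromatin was followed here in the embryonic mouse epicardium and in epicardial-derived cells (EPDCs). An accessible element was counted in the locus where the summits that form it lay inside Tcf21 or within 100 kb of either end on mm10, and the promoter was taken as 1 kb to each side of the transcription start site (TSS). By this rule 207 of 1071660 peak summits in 9 libraries fell in the locus, and they formed 35 of the 184764 regions of the series. Of the 35 elements, 2 lay within 1 kb of the TSS, 21 lay farther upstream and 12 farther downstream.

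TCF21 pairs with ubiquitous E proteins and binds E-boxes, short DNA motifs with CA at one end and TG at the other. In the heart it is known from the epicardium and from the cardiac fibroblast lineage, whose formation needs it. The epicardium is the mesothelial sheet of the heart, and some of its cells lose contact with the sheet, undergo epithelial-to-mesenchymal transition and enter the muscle wall as EPDCs. Accessible elements around a developmental gene are often its promoter and enhancers, but an element near a gene need not act on it.

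Bulk ATAC-seq, in which the Tn5 transposase cuts open chromatin, had been carried out on sorted heart cells of C57BL/6J embryos carrying Rosa26tdTomato;Wt1CreERT2/+. The dams received tamoxifen by oral gavage at E9.5, so cells that expressed Wt1 while the drug was active, and their descendants, carry tdTomato. Epicardial cells were CD31-tdTomato+PDPN+ and came from hearts of E11.5 (3 libraries, 6 pooled hearts each) or E17.5 (3 libraries, 4 pooled hearts each). EPDCs were CD31-tdTomato+PDPN- and came from E12.5 (1 library) or E13.5 (2 libraries, 4 to 13 pooled hearts). CD31 marks endothelium and podoplanin (PDPN) the epicardial surface, so both were used to choose the cells. Cells that first expressed Wt1 after the drug had cleared are not labelled, and the E17.5 cells had carried it for longer than the E11.5 cells. No epicardial library of E12.5 or E13.5 was analysed here, so stage and population cannot be told apart in the comparison of EPDCs with epicardium.

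Accessibility was read as a rank percentile. All summits of a library were ranked by the −log10 p that the peak caller gave them, 100 standing for the strongest, and an element took the percentile of its strongest summit, or 0 where no summit was called. A value of 0 places an element below the caller's threshold in that library and does not show that it is closed. The lists held 94909 to 142743 summits, and the most frequent local background, a measure of depth, was 2.07 to 4.26 fragments in 8 libraries and 10.9 in E13.5 EPDC sample 2, a list merged from technical replicates. The E17.5 libraries had 94909 to 127933 summits and the E11.5 libraries 119386 to 142743. The EPDC lists alone also held 252 to 268 summits outside the assembled chromosomes, which were left out. Promoters of epicardial markers were called for 6 to 8 of 8 genes per library, those of endothelial markers for 1 of 5 (Kdr; Pecam1, Cdh5, Tie1 and Emcn were not called in any library), and those of blood markers for 1 or 2 of 5 (Ptprc, Spi1 and Tyrobp in none). Promoters of cardiomyocyte markers were called for 3 or 4 of 5, without Myh6, and those of mesenchymal markers for 4 or 5 of 6. Wt1 was called in all 9 libraries, at 97.0 ± 0.811 at E11.5, 91.4 ± 0.842 at E17.5 and 95.6 ± 1.98 in EPDCs (percentile, mean ± SD, n = 3). Of the 8 epicardial marker promoters, 4 were lower in every EPDC library than in any epicardial one (Upk3b, Krt19, Krt8 and Aldh1a2) and 0 were higher. Over the promoters of all protein-coding genes, 7.01% were lower in this way and 4.84% were higher. The mesothelial marker Upk3b stood at 98.7 ± 0.383 at E11.5, 97.5 ± 0.438 at E17.5 and 47.5 ± 25.4 in EPDCs. Here and throughout, n counts libraries made from separate pools of hearts.

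Tcf21 (ENSMUSG00000045680) spans chr10:22817281-22820174 on the minus strand, so upstream of the gene means a higher coordinate. Its TSS was taken as position 22820174, the outermost start in GENCODE. The antisense gene Gm10824, at chr10:22815749-22823330 on the plus strand, spans the whole of Tcf21, and its own start lies 4.43 kb downstream of the Tcf21 TSS. Peaks carry no strand, so openness of Tcf21 and of Gm10824 cannot be separated where they overlap. The only other protein-coding gene in the window was Tbpl1, a TBP-like factor best known from spermatogenesis, with its start 88.2 kb downstream. All 21 upstream elements were intergenic.

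The reference sequences of the elements that carry the results are printed here as the 201 bases around each region's centre, on the mm10 assembly. The promoter is given as the 219 bases directly upstream of the annotated start, from RefSeq on GRCm38.p6, read on the gene's own strand. Capitals mark exact matches, on either strand, to the E-boxes CAGCTG and CATCTG, the GATA motif AGATAA, the TEAD motif GGAATG, the AP-1 motif TGANTCA, the T-box motif AGGTGTGA, the WT1 motif GCGNGGGNG, the MEIS motif TGACAG and the MAF motif TGCTGAC.
95.9 kb upstream, chr10:22915930-22916130, plus strand: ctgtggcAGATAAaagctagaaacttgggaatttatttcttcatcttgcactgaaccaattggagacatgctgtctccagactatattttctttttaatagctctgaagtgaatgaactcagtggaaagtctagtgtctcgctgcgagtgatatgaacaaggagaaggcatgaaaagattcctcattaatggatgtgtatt
67.5 kb upstream, chr10:22887527-22887727, plus strand: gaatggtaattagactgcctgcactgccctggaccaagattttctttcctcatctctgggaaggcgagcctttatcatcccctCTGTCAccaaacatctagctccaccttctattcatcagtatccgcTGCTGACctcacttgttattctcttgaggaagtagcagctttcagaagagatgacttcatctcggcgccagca
48.5 kb upstream, chr10:22868581-22868781, plus strand: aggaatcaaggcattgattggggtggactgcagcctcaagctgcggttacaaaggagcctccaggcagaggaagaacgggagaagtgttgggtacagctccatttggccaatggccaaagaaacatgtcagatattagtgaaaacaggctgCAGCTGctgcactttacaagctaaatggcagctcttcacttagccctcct
17.0 kb upstream, chr10:22837074-22837274, plus strand: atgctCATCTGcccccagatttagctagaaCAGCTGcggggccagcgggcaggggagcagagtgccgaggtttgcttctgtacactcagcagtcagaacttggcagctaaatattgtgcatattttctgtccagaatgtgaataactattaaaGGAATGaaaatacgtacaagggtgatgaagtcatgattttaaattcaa
promoter, chr10:22820175-22820393, minus strand: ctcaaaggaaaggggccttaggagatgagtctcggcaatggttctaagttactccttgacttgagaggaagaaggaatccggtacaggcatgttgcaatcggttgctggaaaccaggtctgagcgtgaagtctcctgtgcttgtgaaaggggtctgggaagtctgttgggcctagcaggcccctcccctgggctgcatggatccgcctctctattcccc
5.2 kb downstream, chr10:22814877-22815077, plus strand: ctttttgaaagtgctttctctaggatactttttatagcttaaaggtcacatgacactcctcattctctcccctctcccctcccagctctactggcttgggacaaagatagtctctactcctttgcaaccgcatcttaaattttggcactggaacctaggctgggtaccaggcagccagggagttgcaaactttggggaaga
6.4 kb downstream, chr10:22813634-22813834, plus strand: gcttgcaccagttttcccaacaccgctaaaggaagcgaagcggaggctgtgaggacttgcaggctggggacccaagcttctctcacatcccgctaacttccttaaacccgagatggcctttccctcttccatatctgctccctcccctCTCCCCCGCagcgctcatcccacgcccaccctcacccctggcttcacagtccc
34.7 kb downstream, chr10:22785331-22785531, plus strand: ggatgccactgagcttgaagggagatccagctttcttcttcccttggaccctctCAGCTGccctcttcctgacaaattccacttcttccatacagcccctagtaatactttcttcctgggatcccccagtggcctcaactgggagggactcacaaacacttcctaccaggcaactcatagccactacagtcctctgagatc

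In these stretches the element 17.0 kb upstream held both forms of the E-box and a TEAD match, and those 48.5 kb upstream and 34.7 kb downstream each held a CAGCTG. The element 67.5 kb upstream held a MEIS and a MAF match. The element 6.4 kb downstream held a WT1 match, and the element 95.9 kb upstream held a GATA match. In the stretches shown, the promoter and the element 5.2 kb downstream held none of these letters. The promoter element of 501 bp held 1 AGATAA. Over the full 501 bp, CAGCTG stood in 8 of 35 elements (22.9%, against 33.5% of all regions of the same length) and CATCTG in 8 (22.9% against 35.4%). AGATAA stood in 15 (42.9% against 29.8%), TGACAG in 13 (37.1% against 36.6%), GGAATG in 9 (25.7% against 33.1%) and TGANTCA in 8 (22.9% against 22.8%). TGCTGAC stood in 3 (8.57% against 11.2%), GCGNGGGNG in 2 (5.71% against 7.94%) and AGGTGTGA in 1 (2.86% against 1.97%). The element 95.9 kb upstream held 4 of the AGATAA matches and 2 of AP-1. The median GC content was 46.5% in the elements and 48.3% in all regions. A match is a description of letters and not a binding site.

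**Figure D1:**
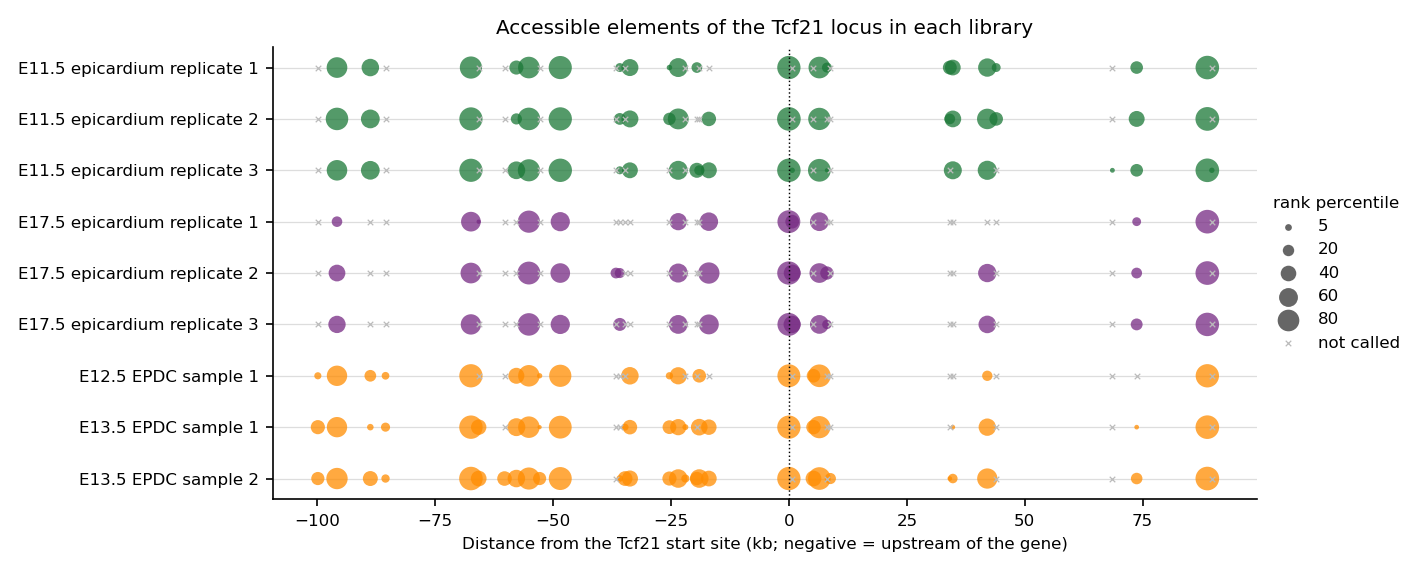
Each row is a library and each column an element, placed at its distance from the Tcf21 start site in kb (negative values lie upstream of the gene). Filled points are called elements with area growing with rank percentile, and crosses mark elements that were not called. Large points at the start site and at 67.5, 55.2 and 48.5 kb upstream run through all 9 libraries, and the E17.5 libraries show 12 to 15 called elements.

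The Tcf21 promoter was called in every library and stood among its stronger peaks. It lay at the 92.9, 95.8 and 94.4 percentile in E11.5 epicardium, at 89.6, 93.1 and 89.7 in E17.5 epicardium, and at 90.2, 93.0 and 93.4 in EPDCs. The 3 groups overlapped. These percentiles correspond to ranks of 5930 to 11058 from the top, a fold enrichment over local background of 9.71 to 14.0, and 153 to 676 fragments at the summit. The E11.5 mean of 94.4 ± 1.47 stood against 90.8 ± 1.97 at E17.5 (percentile, SD, n = 3), a difference of −3.59 points that was within the spread of the libraries (two-sided exact permutation test, p = 0.20; the smallest p of 3 against 3 libraries is 0.10). EPDCs, at 92.2 ± 1.78, differed from the 6 epicardial libraries by −0.38 points (exact permutation test, p = 0.85; the smallest p of 3 against 6 is 0.0119). Without E17.5 replicate 2, or without E11.5 replicate 1, the stages no longer overlapped, at −4.73 and −4.33 points. The sign of both promoter differences depended on the scale. On fragments over the genome background, the stage difference was 0.26 on the log2 scale, where the median region called in all 9 libraries shifted by 0.24.

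Among all protein-coding genes, 63.2% had a promoter called in all 9 libraries. The genes whose promoters followed that of Tcf21 most closely over the 9 libraries were Sord, Pgm2, Procr, Notch2 and Sin3b, with mean absolute differences of 0.556 to 0.798 points, and 3169 of 21911 genes lay within 3 points.

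The accessible interval at the promoter reached farther into the gene at E17.5. Its inner edge lay 574, 637 and 755 bp inside Tcf21 in the E11.5 libraries, 949, 888 and 978 bp at E17.5, and 426, 591 and 673 bp in EPDCs. Every E17.5 library lay above all other libraries, and intervals at other genes were not measured. The difference between the stages was 283 bp (exact permutation test, p = 0.10, the smallest possible), and the whole interval was 1069 ± 91.9 bp wide at E11.5 and 1348 ± 46.2 bp at E17.5. A separate summit 0.7 kb downstream of the TSS, in an exon of Tcf21, accompanied this extension. It stood at 30.3, 47.5 and 49.7 in the E17.5 libraries, at 2.1 in E11.5 replicate 3 and was not called in the other 2 E11.5 libraries or in EPDCs. The promoter intervals of the other 2 E11.5 libraries and of both E13.5 EPDC libraries reached in part into the 501 bp around this summit, and that of E12.5 EPDC sample 1 did not. The 4 libraries are thus those with a called summit, and openness of the stretch was not limited to them.

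Of the 35 elements, 8 were called in all 9 libraries (22.9%), against 25.7% of all regions. Besides the promoter these lay 95.9, 67.5, 55.2, 48.5 and 23.5 kb upstream and 6.4 and 88.7 kb downstream, the last at the Tbpl1 promoter. The Tbpl1 element was the steadiest, at 93.4 to 96.8 in all libraries. The element 55.2 kb upstream stood at 79.9, 87.4 and 83.8 at E11.5, 84.2, 89.6 and 86.8 at E17.5, and 79.0, 79.1 and 83.8 in EPDCs. Apart from the Tbpl1 promoter, it was the only element beyond 1 kb of the TSS with a mean above 80 in each group (83.7, 86.9 and 80.6). The element 23.5 kb upstream was weaker, at 60.4, 74.0 and 60.7 at E11.5, 49.6, 61.2 and 59.7 at E17.5, and 49.4, 43.7 and 57.8 in EPDCs.

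**Figure D2:**
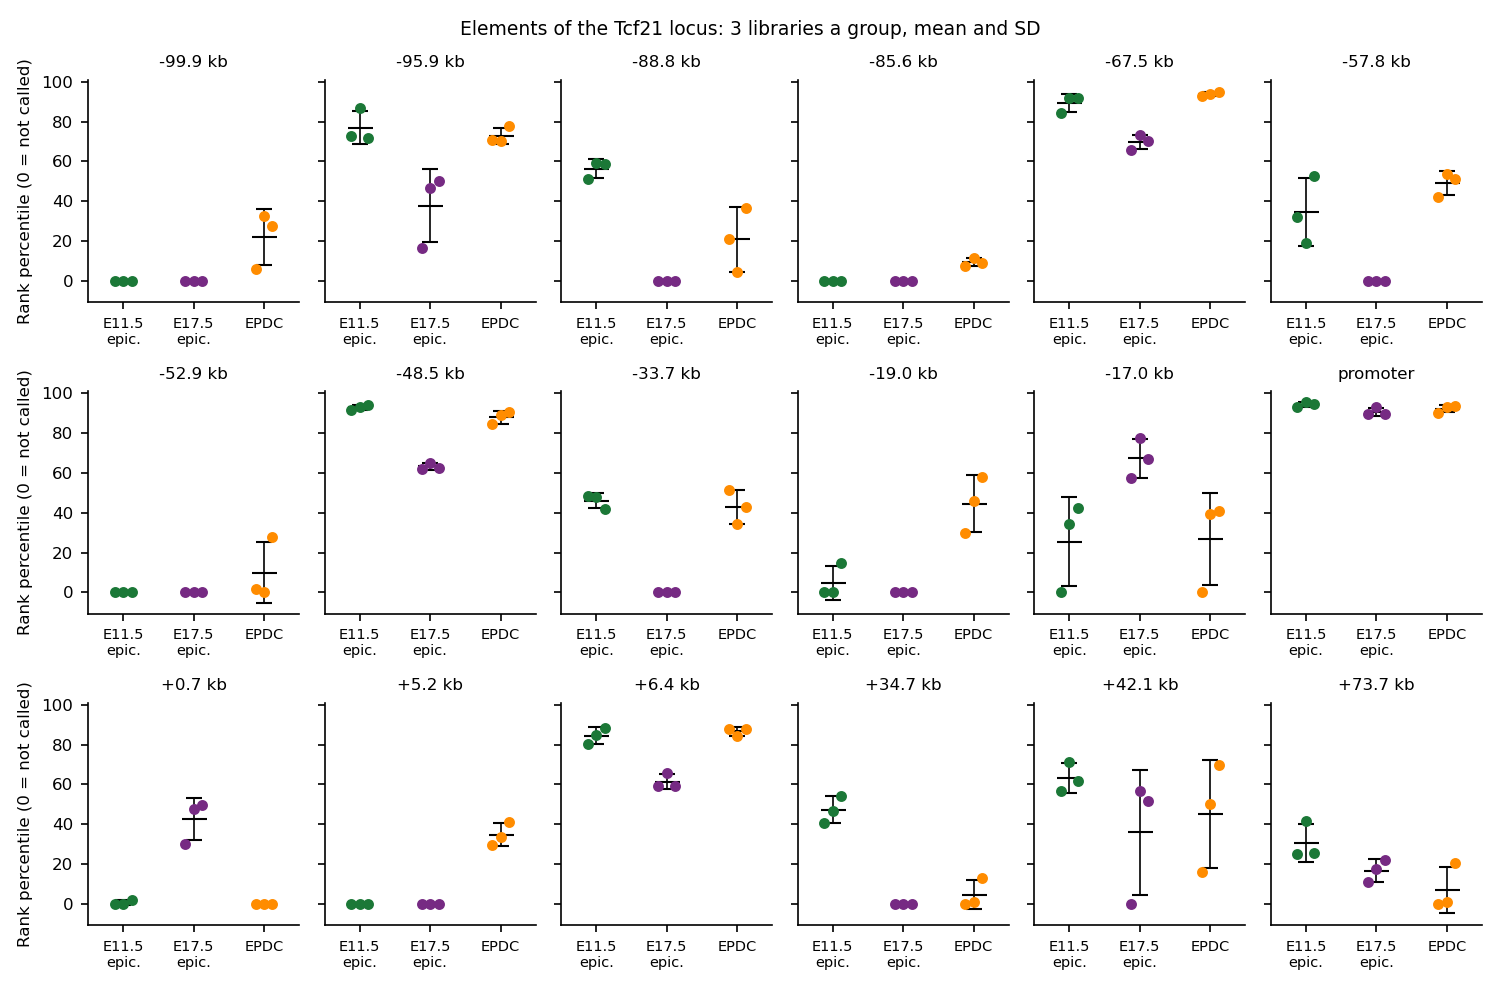
Rank percentile (0 to 100, 0 where no summit was called) of the promoter and the 17 elements without overlap in either comparison, in the 3 libraries of each group; points are libraries, and bars give the mean and SD. Panels are named by distance from the start site, negative upstream. The promoter stays between 89.6 and 95.8 in every library, while the elements at 67.5 and 48.5 kb upstream stand lowest at E17.5.

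Fewer elements were called at E17.5 than at E11.5. The E11.5 libraries called 20, 19 and 22 of the 35, the E17.5 libraries 12, 15 and 14, and the EPDC libraries 18, 24 and 29. The highest count at E17.5 was below the lowest at E11.5. The means were 20.3 ± 1.53 and 13.7 ± 1.53, a difference of −6.67 (exact permutation test, p = 0.10, the smallest possible). The covered length in the locus was 13292 ± 452 bp at E11.5 and 9449 ± 1096 bp at E17.5, and the summed depth-normalized score, on which a library's scores are scaled to the same total, was 184 ± 13.0 and 142 ± 4.69 (both p = 0.10 by the exact permutation test). With equal numbers of top summits taken from every library, the difference in called elements was −2.0 and the groups overlapped (exact permutation test, p = 0.20). Over all protein-coding genes, 27.8% had fewer elements called within 100 kb in every E17.5 library than in any E11.5 library, and 8.59% had a difference in means at least as low as that of Tcf21.

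EPDCs called 23.7 ± 5.51 elements against 17.0 ± 3.90 in the 6 epicardial libraries, a difference of 6.67 that was within the spread (exact permutation test, p = 0.0833). The library with 29 elements was E13.5 sample 2, with the deepest background, and without it the difference was 4.0 (exact permutation test, p = 0.321). Without E12.5 sample 1 the difference was 9.5 and the libraries no longer overlapped, and with equal numbers of top summits it was 4.0 (exact permutation test, p = 0.0357). The summed score was 191 ± 18.1 in EPDCs (p = 0.143 against all epicardium by the exact permutation test). Every EPDC library called more elements than every E17.5 library, a pattern that 12.4% of protein-coding genes shared.

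**Figure D3:**
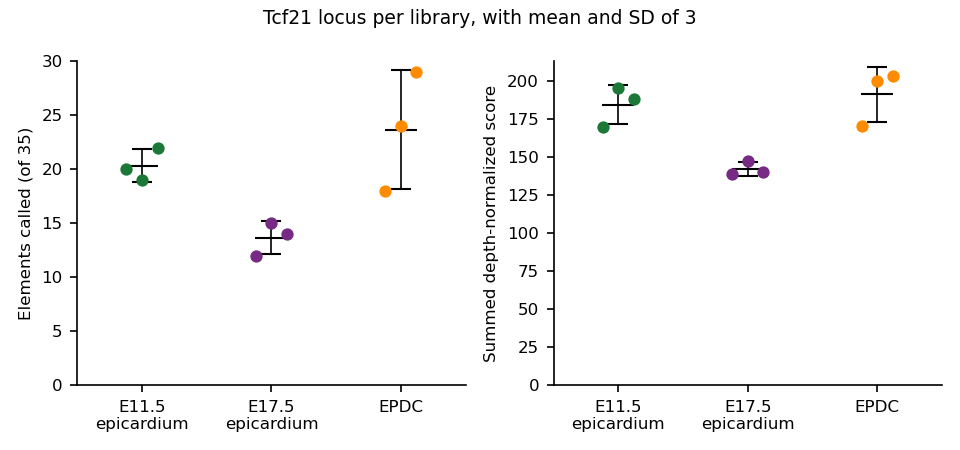
Number of the 35 elements called (left) and summed depth-normalized score of the locus, without unit (right), for each library; points are libraries and bars the mean and SD of 3. The E17.5 libraries, at 12 to 15 elements, lie below all the others, and EPDC libraries range from 18 to 29.

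Compared with E11.5, 10 of the 35 elements (28.6%) were lower in every E17.5 library, where 27.9% of all regions were, and 2 (5.71%) were higher, where 11.0% of all regions were. On this scale the share of lower elements was close to the background. With equal numbers of top summits 8 (22.9%) were lower, where 16.8% of all regions were, and 3 (8.57%) were higher, where 14.6% were. The 2 higher became 4 on the depth-normalized score and on fragments over background and 1 by overlap of intervals. Beyond 1 kb of the TSS the locus holds 21 elements upstream and 12 downstream. Of the 10 lower ones, those upstream lay at 95.9, 88.8, 67.5, 57.8, 48.5 and 33.7 kb, and those downstream at 6.4, 34.7, 42.1 and 73.7 kb. For each such element the exact permutation p was 0.10, the smallest this design gives, and 0.257 after Benjamini-Hochberg adjustment over all regions, so no single element passed a test of stage. Of the promoters of all protein-coding genes, 7.92% were higher in every E17.5 library than in any E11.5 one, and 18.3% were lower. Promoters of 3 of the 5 cardiomyocyte markers were lower in every E17.5 library. Tnnt2 stood at 62.9 ± 3.05 against 87.7 ± 2.11 at E11.5, Actn2 at 81.3 ± 3.72 against 93.4 ± 1.67, and Ryr2 at 78.5 ± 2.93 against 84.4 ± 2.73. Myh6 was called in no library and Nppa overlapped. Of the 6 mesenchymal markers 3 were higher in every E17.5 library, Postn at 46.1 ± 3.64 against 0, Col3a1 at 74.5 ± 1.03 against 60.8 ± 15.7 and Pdgfra at 73.7 ± 3.01 against 67.6 ± 3.62, and 0 were lower. Of the 8 epicardial markers 3 were higher (Msln, from 0 to 81.6 ± 6.14, Krt8 and Aldh1a2) and 3 lower (Wt1, Upk3b and Bnc1). Of the 5 blood markers Cd68 was higher, at 75.3 ± 4.38 against 55.3 ± 5.05, and of the 5 endothelial markers none was apart. The part of these markers in the stage result was not tested.

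Among elements called in all 9 libraries, the element 48.5 kb upstream showed the widest gap between the nearest libraries of the stages. Its percentiles were 91.8, 93.0 and 93.9 at E11.5, 62.2, 65.1 and 62.5 at E17.5, and 84.4, 89.3 and 90.4 in EPDCs. At E11.5 it lay within 3 points of the promoter in each library, and at E17.5 its mean was 63.3 ± 1.59 against 90.8 ± 1.97 for the promoter. The fragments at its summit were 42.2, 48.3 and 54.9 times the genome background at E11.5 and 19.3, 17.45 and 16.5 times at E17.5. The element 67.5 kb upstream stood at 84.2, 92.1 and 92.1 at E11.5 and at 65.8, 73.1 and 70.4 at E17.5. The element 95.9 kb upstream, with the most AGATAA matches, stood at 72.7, 86.8 and 71.8 at E11.5 and at 16.8, 46.6 and 50.2 at E17.5. Its difference in means, −39.2 points, was larger than the −29.6 of the element 48.5 kb upstream. Downstream, the element at 6.4 kb stood at 80.1, 85.0 and 88.6 at E11.5 and at 59.4, 65.7 and 59.2 at E17.5. In all of these the E11.5 and E17.5 libraries stayed apart under each alternative processing.

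A second set was called in every E11.5 library and in no E17.5 library. The element 88.8 kb upstream stood at 51.2, 59.3 and 58.9 at E11.5, and the element 33.7 kb upstream at 48.3, 48.1 and 41.7. The element 34.7 kb downstream stood at 40.8, 46.7 and 54.3, and the element 57.8 kb upstream at 32.1, 19.1 and 52.7. Their summits at E11.5 held 30 to 49 fragments. The background was 2.07 to 3.61 fragments in the E17.5 libraries and 3.24 to 4.10 in those of E11.5, with overlap, and the weakest summits called in the locus at E17.5 held 9 fragments in replicate 1, 18 in replicate 2 and 20 in replicate 3. The part of depth in these absences was not tested. In all, 8 elements (22.9%) were called in some E11.5 and some EPDC library and in none of E17.5, where 12.1% of all regions were.

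Of the weaker elements downstream, that at 42.1 kb stood at 56.7, 71.4 and 61.9 at E11.5 and at 56.6 and 51.8 in 2 of the 3 E17.5 libraries. That at 73.7 kb stood at 25.1, 41.9 and 25.4 at E11.5 and at 10.8, 17.6 and 21.9 at E17.5. Both depended on the processing. At a stricter threshold of the peak caller (−log10 q of at least 5), with equal numbers of top summits, or on log2 fragments over background, neither element was apart between the stages. By fold enrichment that at 42.1 kb was not either, and its difference of −27.2 points was −9.17 without E17.5 replicate 1. On the depth-normalized score, or with summits taken within 250 bp of the centre, that at 73.7 kb was not, and its difference of −14.0 was −8.47 without E11.5 replicate 2. With equal numbers of top summits the element 57.8 kb upstream was not apart.

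The element 17.0 kb upstream went the other way. It was not called in E11.5 replicate 1 and stood at 34.2 and 42.2 in the others, at 57.7, 77.4 and 67.2 at E17.5, and at 0, 39.3 and 40.8 in EPDCs. Every E17.5 library lay above all 6 other libraries, by a difference of 41.99 points from E11.5. Fragments at its summit were at most 9.57 times the genome background outside E17.5 and 14.5, 21.6 and 15.3 times at E17.5. It holds both E-box forms in the sequence shown above, and over its 501 bp 1 CAGCTG and 2 CATCTG matches. The summit 0.7 kb inside the gene was the other element higher at E17.5.

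**Figure D4:**
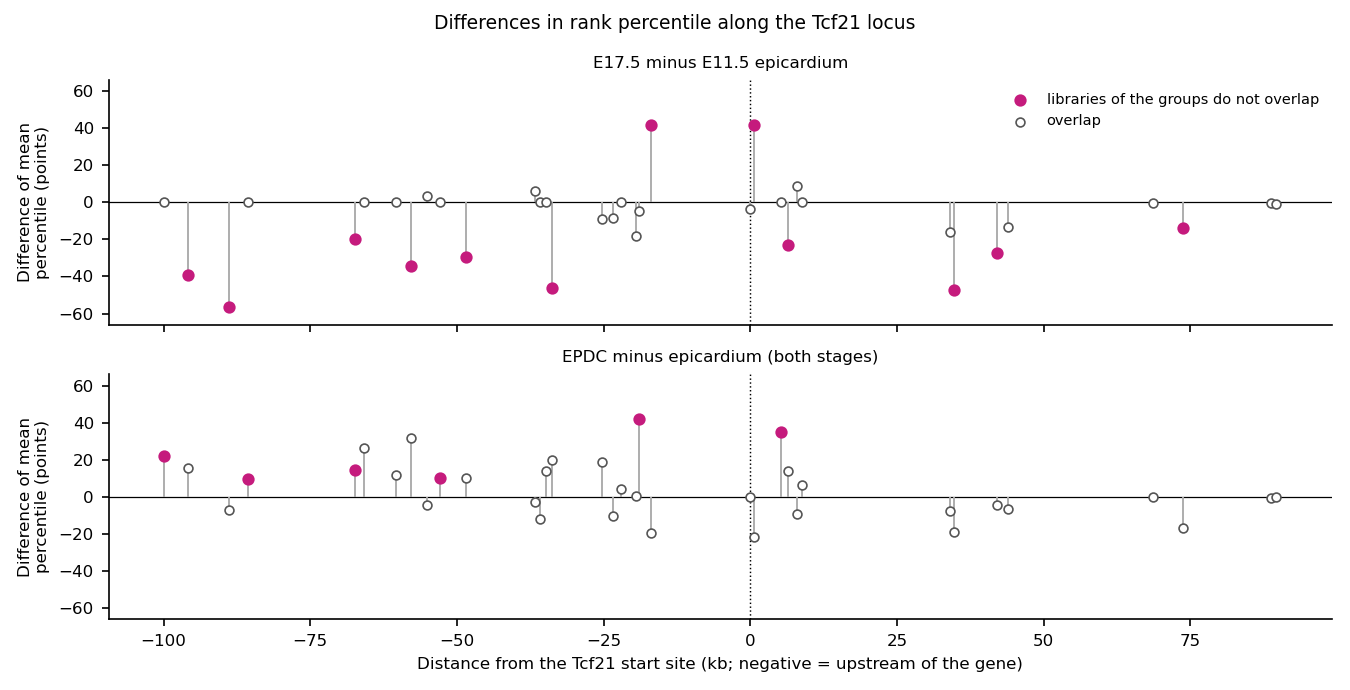
Difference in mean rank percentile (points) of each element against its distance from the Tcf21 start site (kb, negative upstream), for E17.5 minus E11.5 epicardium (top) and EPDCs minus all epicardium (bottom). Filled points are elements whose libraries do not overlap between the groups, 2 higher and 10 lower at E17.5 and 6 higher in EPDCs, and open points are elements that overlap.

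Against all 6 epicardial libraries, 6 elements (17.1%) were higher in every EPDC library, where 9.35% of all regions were, and 0 were lower, where 8.23% of all regions were. By the exact permutation test over 84 assignments, the smallest p possible is 0.0119, which is 0.0858 after Benjamini-Hochberg adjustment over all regions, so no single element could pass, and 4 of the 6 were called in no epicardial library. By that test 40096 of all regions had an unadjusted p under 0.05 and 0 an adjusted one. Without E12.5 EPDC sample 1 the 6 became 10. Without E13.5 EPDC sample 2, 3 elements were lower in every EPDC library, and without E17.5 replicate 1, 2 were. Fewer libraries make a lack of overlap easier, and the share of all regions was not counted with a library left out. At the stricter threshold 3 of the 35 stayed higher, where 8.84% of all regions were. With equal numbers of top summits 4 of the 35 were higher, where 11.2% of all regions were. Beside the 4 epicardial markers lower in EPDCs, Cd68 was lower, at 12.3 ± 11.3, and Kdr and Postn were higher in every EPDC library. Of all promoters, 4.84% were higher in this way and 7.01% lower. Kdr was the only endothelial marker apart, and Postn the only mesenchymal one. Among the other mesenchymal markers, Dpt was called in no library. Those that overlapped differed from epicardium by −10.5 points (Pdgfra), −1.81 (Pdgfrb), −1.04 (Col1a1) and 14.8 (Col3a1). Kdr stood at 92.2 ± 1.34, against 89.3 ± 0.235 at E11.5 and 88.7 ± 0.578 at E17.5, and Postn at 77.5 ± 5.20. No cardiomyocyte marker was apart, and the part of these markers in the comparison was not tested.

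The strongest of the 6 was the element 67.5 kb upstream. It stood at 92.8, 93.8 and 95.0 in EPDCs, above the highest epicardial library at 92.1, and lay above the promoter in each EPDC library. Its summit held 194, 275 and 652 fragments in EPDCs and 36 to 140 in epicardium, which is 46.3, 64.6 and 59.8 times the genome background against at most 37.96 times. The gap to E11.5 was small, at 4.43 points, and to E17.5 it was 24.12. The exact permutation p was 0.0476 and the adjusted p 0.219, and by fold enrichment the EPDC and epicardial libraries overlapped.

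The element 5.2 kb downstream, within 1 kb of the start of the antisense gene Gm10824, was called only in EPDCs, at 29.6, 33.9 and 41.0. Its summits held 47, 72 and 183 fragments, and it stayed apart under each alternative. It lies next to the element 6.4 kb downstream, which was called in every library and stood at 87.8, 84.3 and 87.9 in EPDCs. The element 19.03 kb upstream stood at 29.6, 46.0 and 58.0 in EPDCs, and was called in epicardium only in E11.5 replicate 3, at 14.6. The peak interval of that replicate also holds its summit 19.5 kb upstream, at 36.9, so that by overlap of intervals the groups were no longer apart, nor were they on log2 fragments over background.

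The other 3 were weak. The element 99.9 kb upstream stood at 5.9, 32.4 and 27.8 in EPDCs, that at 85.6 kb upstream at 7.5, 11.6 and 9.3, and that at 52.9 kb upstream at 2.0, 0.1 and 27.7. None of these was called in epicardium. At the stricter threshold none stayed apart from epicardium, and the differences 99.9 and 85.6 kb upstream were 15.1 and 0.52 points. For that at 52.9 kb the difference of 9.91 points was 1.03 without E13.5 EPDC sample 2. Elements 34.8 and 22.0 kb upstream were called in both E13.5 EPDC libraries and nowhere else. The element 65.8 kb upstream stood at 39.1 and 40.8 in the E13.5 libraries and at 0.2 in E17.5 replicate 1. Those at 60.3 kb upstream and 8.8 kb downstream were called only in E13.5 EPDC sample 2. In all, 8 elements were called in EPDCs alone, 3 at E11.5 alone (43.9, 68.6 and 89.7 kb downstream) and 1 at E17.5 alone (36.7 kb upstream, in replicate 2). These are 22.9%, 8.57% and 2.86% of the elements, against 12.9%, 13.8% and 8.92% of all regions.

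EPDCs were also set against each stage by itself. Against E17.5, 13 elements (37.1%) were higher in every EPDC library, where 19.5% of all regions were, and 3 (8.57%) were lower, where 16.0% were. The 13 included the elements 95.9, 67.5 and 48.5 kb upstream and 6.4 kb downstream, and the 3 were those 55.2 and 17.0 kb upstream and 0.7 kb downstream. Against E11.5, 6 (17.1%) were higher, where 10.9% of all regions were, and 6 (17.1%) were lower, where 25.0% were. The 6 higher were those higher than all epicardium. The 6 lower were at 88.8, 48.5, 35.9 and 23.5 kb upstream and 34.7 and 73.7 kb downstream. The comparisons share libraries, and EPDCs of E12.5 and E13.5 are closer in time to E11.5 than to E17.5. The 13 were 8 at the stricter threshold and with equal numbers of summits. Against E17.5 the 3 lower became 5 without E13.5 EPDC sample 2 and 6 without E17.5 replicate 1, and against E11.5 the 6 higher became 10 without E12.5 EPDC sample 1 and 3 at the stricter threshold. The 6 lower than at E11.5 became 3 at the stricter threshold and with equal numbers of summits, and 9 without E13.5 EPDC sample 2. For EPDCs against a single stage, the share of all regions was not counted under any of these alternatives.

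The 4 elements called in every E11.5 and in no E17.5 library differed among themselves in EPDCs. The element 34.7 kb downstream stood there at 0, 0.8 and 13.1. The element 88.8 kb upstream was intermediate there, at 21.3, 4.5 and 36.7. The elements 57.8 and 33.7 kb upstream, both absent at E17.5, stood in EPDCs at 42.3, 53.8 and 51.4 and at 51.3, 34.5 and 43.0. The element 25.4 kb upstream was called at 6.4, 30.5 and 32.5 in EPDCs, at 2.3 and 24.4 in 2 E11.5 libraries and in no E17.5 library.

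Other elements were weak or called in few libraries. That at 35.9 kb upstream stood at 0 to 26.8, that at 19.5 kb upstream at 0 to 36.9, that at 34.1 kb downstream at 0 to 31.1 and that at 8.0 kb downstream at 0 to 28.5. In all, 27 of 35 elements (77.1%) were called in at least 3 libraries and 5 (14.3%) in 1 library, against 71.9% and 15.8% of all regions. Elements called in all 3 libraries of a group numbered 15 at E11.5 (42.9%, against 50.9% of all regions), 11 at E17.5 (31.4% against 40.5%) and 18 in EPDCs (51.4% against 40.6%). Over the 8 elements called in all 9 libraries, the median difference was −13.97 points between the stages, where the median of all such regions was −3.53, and 4.79 points between EPDCs and epicardium, where it was −0.724.

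The summed accessibility of the locus beyond 1 kb from the TSS was compared with that of other genes over the 9 libraries. The most alike profiles belonged to Gpr171, Slc38a6, Trmt5, 4933415F23Rik and Lhcgr, with Pearson r of 0.987 to 0.994 over 9 libraries that share depth, and 180 genes had r of at least 0.95. The loci of Wt1 and Tbx18, which encode other transcription factors of the epicardium, were counted in the same way. Within 100 kb of Wt1, 75 elements were found, of which the E11.5 libraries called 49 to 52, the E17.5 libraries 40 to 54 and the EPDC libraries 37 to 46. For Tbx18 there were 39, of which 26 to 28, 18 to 24 and 17 to 26 were called. At Tbx18, as at Tcf21, every E17.5 library called fewer elements than every E11.5 library, and at Wt1 the stages overlapped. Differences between the loci were not tested. By number of elements Tcf21 stood at the 72.4 percentile of protein-coding genes, whose median was 25, Wt1 at 99.0 and Tbx18 at 79.8.

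Promoters of the bHLH genes around TCF21 were open in most libraries. Of 18 genes, 15 had a promoter called in all 9, where 63.2% of all protein-coding genes had. The 15 included all 3 E protein partners (Tcf3, Tcf4, Tcf12) and all 4 Id genes, which encode inhibitors that bind E proteins. None of those 7 promoters differed without overlap in either comparison. Between the stages, 1 of the 18 was higher at E17.5 without overlap, where 7.92% of all promoters were, and 3 were lower, where 18.3% were. Against all epicardium, 2 were higher in EPDCs, where 4.84% of all promoters were, and 0 were lower, where 7.01% were.

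The 2 higher in EPDCs were Twist1, a driver of mesenchymal fate, and Tcf15, a regulator of somite epithelium. Twist1 stood at 95.1 ± 0.329 in EPDCs, 90.0 ± 1.58 at E11.5 and 87.4 ± 2.71 at E17.5. Tcf15 stood at 86.7 ± 3.53 in EPDCs, 74.7 ± 1.91 at E11.5 and 67.2 ± 3.38 at E17.5, and was also lower at E17.5 than at E11.5. The close relative Msc stood at 78.5 ± 5.46, 69.3 ± 4.61 and 81.6 ± 4.38 at E11.5, at E17.5 and in EPDCs, with overlap. Twist2 was the 1 promoter higher at E17.5, at 81.2 ± 3.59 against 74.0 ± 1.16. The other 2 lower at E17.5 were Ptf1a, a pancreatic and neural regulator, at 3.59 ± 6.22 against 51.1 ± 4.33, and Ferd3l, called in no E17.5 library, against 28.8 ± 17.6.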

How the data were processed

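The deposited files are peak lists of bulk ATAC-seq. According to the methods and labels, the authors aligned reads to mm10 with nf-core atacseq, removed mitochondrial, blacklisted, duplicate and multi-mapped reads, and called summits with MACS2 2.2.9.1 on whole fragments. The deposited lists give a fold enrichment (a ratio), a −log10 p value and its −log10 q value for every summit, against local background and without scaling between libraries. The authors' window test by edgeR starts from reads and could not be run on peak lists. The 10 samples gave 9 lists, 3 a group, since 1 list pools technical replicates. Replicate numbers of E11.5 and E17.5 belong to separate litters, and deviations of same-numbered libraries correlated at −0.0665 to 0.0728, so the numbers do not pair.

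Summits were extended by 250 bp to each side and merged by iterative removal of overlapping windows in order of depth-normalized score; each summit joined the nearest centre within 500 bp. Tests were exact permutation tests, and calls were groups of libraries without overlap. The number of fragments at a summit was solved from fold enrichment and −log10 p. These steps were tested on simulated lists. Elements are named where they are promoters, are called in all libraries, are restricted to one population, do not overlap, or are mentioned to account for all 35. Genes named are the bHLH list, the 5 most alike for the promoter and for the locus, the Wt1 and Tbx18 loci, and lists of cell type markers, of which those without overlap were given values after these were seen. Members and lists were chosen with earlier results of these data known. Annotation was GENCODE M21 and sequence GRCm38.p6, the build of mm10. Python 3.11.15, numpy 2.4.6, pandas 2.3.3 and scipy were used. Each SD rests on 3 libraries.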

Additional observations from a re-analysis of the deposited data

How the results depend on the processing

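On log2 fragments over background the promoter difference between the stages turned to 0.26, and that of EPDCs turned to 1.09 points by fold enrichment and to 0.058 on the log2 depth-normalized score. The stage difference at the promoter no longer overlapped with equal numbers of top summits (−2.70) or by fold enrichment (−6.87), and it ranged from −4.73 to −2.86 with each library left out. That of EPDCs ranged from −0.995 to 0.641, turning without E12.5 EPDC sample 1 or E11.5 replicate 2 (0.27). Elements higher at E17.5 numbered 4 on the score and on fragments, and 1 by overlapping intervals, and 2 to 3 with a library left out; those lower numbered 10 to 13. Elements higher in EPDCs numbered 3 at the stricter threshold and 6 to 10 with a library left out, and those lower 2 on the score and on fragments and 0 to 3. Of EPDCs against E11.5, 3 were higher at the stricter threshold and 6 to 10 with a library left out, and 3 were lower at the stricter threshold and with equal numbers, and 6 to 9. Against E17.5, 8 were higher at the stricter threshold and with equal numbers (13 to 17), and 5 and 6 were lower on the score and on fragments (3 to 6); these alternatives were chosen after seeing the data. The stage difference in called elements was −2.0 with equal numbers and −7.33 to −5.83 with a library left out, and that of EPDCs 4.0 to 9.5. The element 0.7 kb downstream turned to −3.59 by overlapping intervals, where it takes the value of the promoter, and that 73.7 kb downstream to 1.39 with equal numbers. With the replicate number as a block, the promoter difference stayed −3.59 (exact permutation test, p = 0.25, the smallest possible), with every pair lower, and 3 elements were higher and 12 lower. The background moved too: at E17.5, 15.5% of all regions were higher and 24.9% lower on the score, and 21.4% and 20.8% on fragments; in EPDCs, 10.1% were lower on the score, 7.38% higher and 12.1% lower on fragments, and 8.84% higher at the stricter threshold. The background was not counted with a library left out, by overlapping intervals or with the block. For EPDCs against a single stage it was counted on the main scale alone. Except where named, causes were not tested.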

Other observations

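Widening the window to 200 kb gave a difference of −10.00 called elements between E17.5 and E11.5 libraries (exact permutation test, p = 0.10, the smallest possible), and narrowing it to 50 kb gave −4.33. For EPDCs against all epicardium the same windows gave 6.67 and 2.5.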
